A study of Rattus norvegicus with 24 samples.

Results

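The potassium channel genes described here are those whose symbol begins with Kcn on an Affymetrix rat expression array, which reads RNA levels as the brightness of probe sets, small groups of probes that each match 1 transcript. A probe set was a member if the platform annotation gave it 1 gene symbol and that symbol starts with Kcn. There were 126 such probe sets of 31099, standing for 75 genes of 14217. A gene was read at its probe set of highest mean, and 47 of the 75 genes were bright enough to test, among 10205 genes tested in all. Tissue came from the forebrain of 24 male Fisher 344 rats aged 11 to 12 weeks, 1 array per rat. The labels give 6 groups of 4 rats: vehicle (0 mg/kg), and D-serine at 5, 20, 50, 200 or 500 mg/kg, given once, with the rats killed 96 h later. The strain, sex, age and interval were shared by all groups, and no animal carried an engineered allele according to the labels. D-serine is the co-agonist of the NMDA type of glutamate receptor. About 30 mg of tissue was taken per rat, and where in the forebrain it was cut was not given in the sources used here.

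Potassium channels let potassium leave the neuron and so set its resting potential, end its action potentials and limit how fast it can fire. The subfamilies differ in what opens them. Kcna, Kcnb, Kcnc and Kcnd encode the pore subunits of the voltage-gated Kv1 to Kv4 channels, Kcnh the EAG and ERG channels and Kcnq the slow M-current channels, while Kcng, Kcns and Kcnv encode subunits that are electrically silent alone and modify other voltage-gated subunits. Kcnab, Kcnip, Kcne and Kcnmb encode auxiliary subunits. Kcnj encodes inward rectifiers, among them the G protein-gated GIRK channels, Kcnk the leak channels, Kcnma and Kcnn calcium-activated channels, and Kcnt sodium-activated channels. Because whole tissue was measured, fewer cells of a type and less RNA per cell cannot be told apart.

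The arrays differed in ways that bear on every value below. Array medians of the deposited intensity ran from 56 to 104, so arrays were quantile normalized, and levels are given as log2(intensity + 16). The 3' to 5' ratio of the Gapdh control probe sets, a measure of RNA integrity on each array, was 0.83 ± 0.06 on the log2 scale (SD, n = 4) in vehicle. At 5, 20 and 50 mg/kg the ratio was 0.19 ± 0.07, 0.18 ± 0.04 and 0.34 ± 0.17, each below vehicle on all arrays (exact two-sided permutation p = 0.0286, the smallest that 4 against 4 allows, and adjusted p = 0.0476). The 200 mg/kg value of 0.60 ± 0.21 had an exact permutation p of 0.0857, and the 500 mg/kg value of 0.75 ± 0.14 one of 0.371. The doses with calls among the potassium channel genes are therefore also doses at which this ratio differed from vehicle, and its part in them was not tested. A model with the ratio as covariate is given below but cannot separate it from dose, because these groups did not overlap. The ratio ran from 0.76 to 0.89 in vehicle and from 0.10 to 0.26, 0.15 to 0.23 and 0.18 to 0.57 at 5, 20 and 50 mg/kg. Of the forebrain checks, the summed intensity of 7 markers of cortical and hippocampal excitatory neurons was 5850 to 9512 on 23 arrays and 1389 on the array of Animal #251, replicate 4 of the 500 mg/kg group. The sum of 9 cerebellar markers was 329 to 697 on those 23 arrays and 19208 on that of Animal #251. Its RNA thus goes against the forebrain label, so the main results are given with and without it.

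Few potassium channel genes passed the test between dosed and vehicle rats at 96 h. Each dose was compared with vehicle in 1 model of all 24 arrays in limma, with Benjamini-Hochberg adjustment over 18625 probe sets, and a gene was called where its adjusted p was under 0.05. The 5 mg/kg group had 1 of 47 genes higher, Kcnab3, and 0 lower, against 3.24% of all tested genes called, 1.83% higher and 1.41% lower. In the 20 mg/kg group 0 of 47 were called, against 5.16% of all genes, 2.65% higher and 2.52% lower. For 50 mg/kg the count was 0, against 0.402%, and for 200 and 500 mg/kg it was 0, against 0% and 0%. An F test over the 6 groups called 1 gene, Kcnq3, against 3.37% of all genes. These shares do not set the channel genes above the rest of the array.

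With an unadjusted p under 0.05 in limma, 7 channel genes were higher and 1 lower in the 5 mg/kg rats, where 7.52% of all genes were higher and 7.29% lower. From 20 to 500 mg/kg the channel genes higher numbered 6, 3, 1 and 1 (8.15%, 4.86%, 2.12% and 3.3% of all genes), and those lower 0, 1, 0 and 1 (8.78%, 5.13%, 2.28% and 3.4%). Without Animal #251 the higher genes numbered 8, 7, 4, 1 and 0 over the 5 doses and the lower ones 5, 2, 1, 0 and 2. The shares of all genes in that fit were 9.39%, 10.3%, 6.57%, 3.03% and 2.73% higher and 9.42%, 11.1%, 6.8%, 3.09% and 3.01% lower. Genes with every dosed array above every vehicle array numbered 3, 4, 3, 2 and 0 from the lowest to the highest dose, against 5.64%, 5.97%, 3.13%, 1.54% and 1.22% of all genes. Those with every dosed array below numbered 1, 0, 0, 0 and 1, against 5.23%, 6.24%, 3.13%, 1.66% and 1.41%.

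The median difference of the 47 genes from vehicle was 0.03, 0.06, 0.02, 0.01 and 0.02 on the log2 scale at 5, 20, 50, 200 and 500 mg/kg. The same median over all tested genes was -0.01, -0.01, -0.01, 0.00 and -0.00. Between 24 and 29 of the 47 lay above vehicle at each dose, so neither direction dominated. The median size of a difference was 0.17, 0.18, 0.15, 0.12 and 0.17 for channel genes and 0.12, 0.13, 0.11, 0.09 and 0.10 for all genes, and the median standard error was also wider, 0.19 against 0.13. The 95% interval of the difference lay within 1 log2 unit of 0 for 43, 44, 42, 45 and 42 of the 47 genes. It lay within 0.5 for 16, 12, 15, 18 and 15, so changes under about 0.5 could not be resolved for most members with 4 arrays per group.

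**Figure D1:**
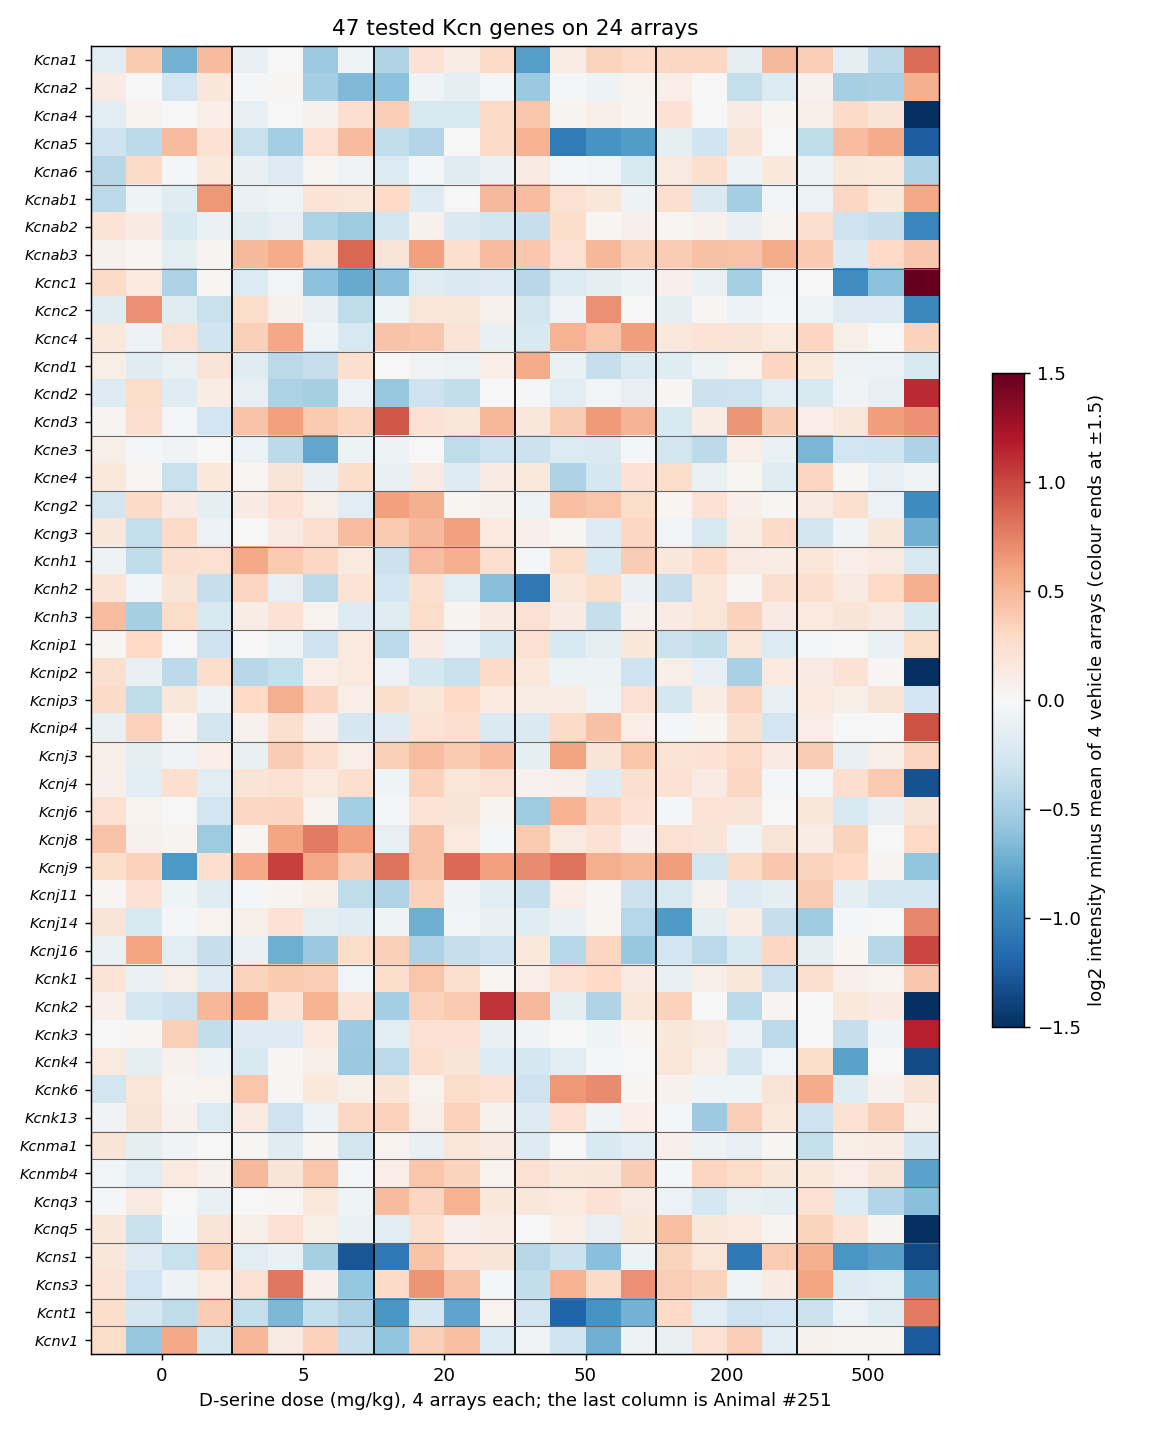
Level of the 47 tested Kcn genes on each of the 24 arrays, as log2 intensity minus the mean of the 4 vehicle arrays. Rows are genes grouped by subfamily and columns are arrays grouped by dose in mg/kg, with red above and blue below vehicle and the colour ending at ±1.5. The last column, Animal #251, holds the deepest colours, and Kcnab3 and Kcnj9 are red across most dosed arrays.

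Kcnab3, which encodes the Kv beta-3 auxiliary subunit of Kv1 channels, was the channel gene that rose against vehicle. Its log2 intensity at probe set 1369687_at was 6.15, 6.11, 5.95 and 6.13 in the 4 vehicle arrays. The 5 mg/kg arrays read 6.57, 6.64, 6.33 and 6.95. Those of 20 mg/kg read 6.28, 6.70, 6.34 and 6.56. Neither of those dose groups overlapped with vehicle. At 50 mg/kg its values were 6.49, 6.31, 6.58 and 6.44. The 200 mg/kg values were 6.46, 6.53, 6.51 and 6.64, and those of 500 mg/kg 6.48, 5.87, 6.38 and 6.49. Every array at 50 and 200 mg/kg also lay above every vehicle array, while at 500 mg/kg replicate 2 lay below them all.

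The difference for Kcnab3 at 5 mg/kg was 0.54 ± 0.14 (SE) on the log2 scale, a 1.45-fold rise, with a 95% interval from 0.25 to 0.83 and an adjusted p of 0.0239 in limma. Without Animal #251 the adjusted p was 0.0161. The differences at the other doses were 0.39 (adjusted p = 0.0911 in limma), 0.37 (0.226), 0.45 (0.755) and 0.22 (0.758) from 20 to 500 mg/kg and did not pass. These comparisons share the 4 vehicle arrays. The difference at 5 mg/kg was no longer called when vehicle replicate 3 was left out (adjusted p = 0.0638), nor without replicate 2 (0.058) or replicate 4 (0.0925) of the 5 mg/kg group. With the Gapdh ratio of each array as a covariate the difference was 0.70 with an adjusted p of 0.743, and in that model 0 of 18625 probe sets were called at 5 mg/kg, although 1235 had an unadjusted p under 0.05.

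The other members of the Kcnab subfamily, Kcnab1 and Kcnab2, encode Kv beta-1 and beta-2. Kcnab2 at its brightest probe set differed by -0.33, -0.17, 0.02, 0.00 and -0.35 from the lowest to the highest dose, and Kcnab1 by 0.06, 0.14, 0.20, -0.13 and 0.24, with neither called at any dose. A dimmer probe set of each gene did pass. These were noticed after the values were seen, as was that of Kcnj11 below. Probe set 1397663_at of Kcnab2 read 6.04, 6.29, 6.15 and 5.41 in vehicle. In the 5 mg/kg rats it read 7.33, 7.39, 7.09 and 6.52. The 20 mg/kg rats gave 7.04, 7.37, 7.09 and 7.21, and the 50 mg/kg rats 6.35, 7.25, 7.12 and 7.16. All arrays of those 3 groups lay above all vehicle arrays. The 200 mg/kg rats gave 6.18, 6.42, 6.86 and 6.55 and the 500 mg/kg rats 6.09, 6.10, 5.51 and 5.59, both overlapping with vehicle.

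This probe set of Kcnab2 rose by 1.11 ± 0.22, 1.20 and 1.0 at the 3 lowest doses (limma adjusted p = 0.00459, 0.00153 and 0.0328). At 200 and 500 mg/kg it differed by 0.53 (0.893) and -0.15 (0.897). The gene's remaining tested probe set, 1391203_at, differed by -0.32, -0.26, -0.07, -0.08 and 0.03, so the probe sets of 1 gene did not move together. Kcnab1 at 1369847_at showed the same split. It read 7.22, 7.68, 7.18 and 7.57 in vehicle, 8.39, 7.96, 8.30 and 8.0 in the 20 mg/kg rats and 8.16, 8.18, 8.08 and 8.08 in the 50 mg/kg rats. The rises at these doses were 0.75 ± 0.17 (limma adjusted p = 0.00615) and 0.71 (0.0414), with no overlap with vehicle at either. Over all 70 tested Kcn probe sets, 2, 3 and 2 were called at 5, 20 and 50 mg/kg, all higher, beside 705 higher and 323 lower, 978 and 602, and 129 and 32 of all 18625. Which part of each transcript a probe set reads was not analysed here. With the Gapdh ratio as covariate neither probe set was called at any of these doses, with 0.26, 0.34 and 0.35 for that of Kcnab2 and 1.18 and 1.04 for that of Kcnab1 (limma adjusted p of 0.603 or more). The calls at 50 mg/kg were lost for both without replicate 2, 3 or 4 of that group or without vehicle replicate 1 or 4. Both were also lost with no filter on low values (limma adjusted p = 0.0575 for Kcnab2 and 0.065 for Kcnab1). The call of Kcnab2 was lost with only the arrays of both groups (0.0955), and that of Kcnab1 with median centring (0.0518) and with the values as deposited (0.13). That of Kcnab1 was also lost without vehicle replicate 3, replicate 3 or 4 at 5 mg/kg or replicate 3 at 20 mg/kg, with adjusted p values up to 0.144.

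Kcnq3 encodes Kv7.3, a subunit of the M-channel, which restrains repetitive firing. At probe set 1388052_a_at its log2 intensity was 6.74, 6.90, 6.75 and 6.65 in vehicle. The 5 mg/kg values were 6.77, 6.78, 6.92 and 6.69, and those of 20 mg/kg 7.23, 7.08, 7.28 and 6.93. The 20 mg/kg arrays all lay above vehicle, and those at 5 mg/kg overlapped with it. The 50 mg/kg values were 6.93, 6.91, 6.98 and 6.89, and those of 200 mg/kg 6.67, 6.50, 6.65 and 6.61. The 500 mg/kg values were 6.99, 6.55, 6.32 and 6.13, the lowest being Animal #251.

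The difference for Kcnq3 between 20 mg/kg and vehicle was 0.37 ± 0.13 (1.29-fold), which did not pass with all arrays (limma adjusted p = 0.0808) and passed without Animal #251 (0.37 ± 0.11, adjusted p = 0.0349). Between 20 and 200 mg/kg it was 0.52 ± 0.13, or 1.44-fold, with a 95% interval from 0.26 to 0.79 and an adjusted p of 0.0414. In that comparison it was the 1 channel gene called of 47, against 0.529% of all genes in either direction and 0.314% higher, and without Animal #251 its adjusted p was 0.012. The F test over the 6 groups gave an adjusted p of 0.0256, or 0.0266 without that array, when 4.58% of all genes passed it. The gene's second tested probe set, 1369005_at, differed by 0.02, 0.27, 0.28, 0.20 and 0.28 from vehicle and by 0.07 between 20 and 200 mg/kg, with an F test adjusted p of 0.807. The call between 20 and 200 mg/kg held in 12 of the 24 fits that each left out 1 array, with differences from 0.47 to 0.59 and adjusted p values up to 0.159. It was lost without any 1 of the 4 arrays at 200 mg/kg, of replicates 1, 2 and 3 at 20 mg/kg, of replicates 2, 3 and 4 at 50 mg/kg or of replicates 1 and 2 at 5 mg/kg. The F test call was lost without replicate 1, 2 or 3 at 20 mg/kg or replicate 3 of the 500 mg/kg rats. In the model with the Gapdh ratio the difference was 0.33 (limma adjusted p = 0.842), and the one at 20 mg/kg against vehicle was 0.07. Kcnq5, the other tested Kcnq gene, differed from vehicle by 0.07 at both 5 and 20 mg/kg.

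Among the tested Kcnj genes the GIRK subunit genes Kcnj9 and Kcnj3 had the largest differences at 20 mg/kg, neither of them called with all arrays. GIRK channels are opened by G proteins and carry slow inhibition from GABA-B and other receptors. Kcnj9, which encodes GIRK3, read 5.96, 6.04, 4.84 and 5.95 in vehicle. With 5 mg/kg it read 6.26, 6.72, 6.28 and 6.08, and with 20 mg/kg 6.51, 6.13, 6.55 and 6.31. With 50 mg/kg it read 6.41, 6.51, 6.24 and 6.20. Each of these groups lay wholly above vehicle, in which replicate 3 stood far below the rest. With 200 mg/kg it read 6.33, 5.42, 5.98 and 6.10, and with 500 mg/kg 6.03, 6.0, 5.74 and 5.11, both overlapping with vehicle. Kcnj9 passed the intensity filter, at a mean of 5.98, only through the groups where it was higher. Its means were 6.34, 6.38 and 6.34 at 5, 20 and 50 mg/kg. In vehicle and at 200 and 500 mg/kg they were 5.70, 5.96 and 5.72. The differences were 0.64 ± 0.24, 0.68 ± 0.24 and 0.64 at 5, 20 and 50 mg/kg, with limma adjusted p values of 0.136, 0.0883 and 0.229. Without vehicle replicate 3 the difference at 20 mg/kg was 0.40 (adjusted p = 0.297). Without Animal #251 the adjusted p values became 0.0724, 0.0437 and 0.122, so the 1.6-fold difference at 20 mg/kg passed in that fit. It also passed with the values as deposited, at 0.96 (limma adjusted p = 0.00655), where the median of all probe sets itself rose by 0.37. It did not pass with no filter (0.135), median centring (0.0875) or only the arrays of both groups (0.129). With the Gapdh ratio as a covariate the differences at 5, 20 and 50 mg/kg were 0.27, 0.31 and 0.36.

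Kcnj3, which encodes GIRK1, read 7.30, 7.07, 7.15 and 7.31 in vehicle. At 20 mg/kg it read 7.56, 7.67, 7.60 and 7.67, above all vehicle arrays. At 5, 50 and 500 mg/kg the groups overlapped with vehicle, from 7.10 to 7.59, 7.06 to 7.81 and 7.10 to 7.59. The 200 mg/kg arrays, from 7.33 to 7.50, lay just above it. The difference at 20 mg/kg was 0.41 ± 0.13, or 1.33-fold, with a limma adjusted p of 0.0579 with all arrays and 0.0406 without Animal #251. A second probe set, 1369740_at, differed by 0.18 at that dose. Kcnj6, which encodes GIRK2, differed by 0.04, 0.10, 0.13, 0.09 and -0.00 across the doses, with a 95% interval from -0.29 to 0.49 at 20 mg/kg.

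Over the 8 tested Kcnj genes, 5 lay above vehicle at each dose and the medians were 0.10, 0.10, 0.09, 0.11 and 0.03. Kcnj11 encodes the Kir6.2 pore of ATP-sensitive channels. At its brightest probe set it was not called, with differences of -0.07, -0.08 and -0.14 at 5, 20 and 50 mg/kg. At 1369782_a_at it read 5.92, 5.92, 6.22 and 6.23 in vehicle and 6.55, 6.57, 6.93 and 6.46 at 20 mg/kg, which did not overlap. That probe set rose by 0.56 ± 0.14 at 20 mg/kg (limma adjusted p = 0.0143), a call lost without vehicle replicate 1 (0.0519) or replicate 3 of the 20 mg/kg group (0.0671) and with the Gapdh ratio as covariate (0.30, adjusted p = 0.834). At 5 and 50 mg/kg it differed by 0.37 (0.136) and 0.50 (0.0898). Of the 3 higher probe-set calls at 20 mg/kg, none was at the brightest probe set of its gene.

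Kcnt1 encodes the sodium-activated channel Slack, which adds a late potassium current after bursts. It read 8.35, 7.82, 7.70 and 8.46 in vehicle. At 50 mg/kg it read 7.79, 6.88, 7.20 and 7.37, lower in 3 of 4 arrays than every vehicle array. After 5 mg/kg it read 7.73, 7.41, 7.73 and 7.61, and after 20 mg/kg 7.21, 7.83, 7.29 and 8.14, both overlapping with vehicle. The 200 mg/kg rats had 8.38, 7.91, 7.77 and 7.80 and the 500 mg/kg rats 7.76, 7.99, 7.90 and 8.86, where the highest was Animal #251. The difference at 50 mg/kg was -0.77 ± 0.24, or 0.585-fold (limma adjusted p = 0.133). Without Animal #251 its SE was 0.21 and its adjusted p 0.0472, and it was the 1 channel gene called there of 47, against 1.23% of all genes. Its other probe sets differed in the 50 mg/kg rats by -0.41 (1369222_at) and 0.01 (1379147_at). At 5 and 20 mg/kg the gene differed by -0.46 and -0.46. In the model with the Gapdh ratio the sign turned, to 0.60, 0.62 and 0.05 at 5, 20 and 50 mg/kg. That model held Animal #251, with the highest Gapdh ratio (0.97) and the highest Kcnt1 value (8.86), and was not refitted without it.

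**Figure D2:**
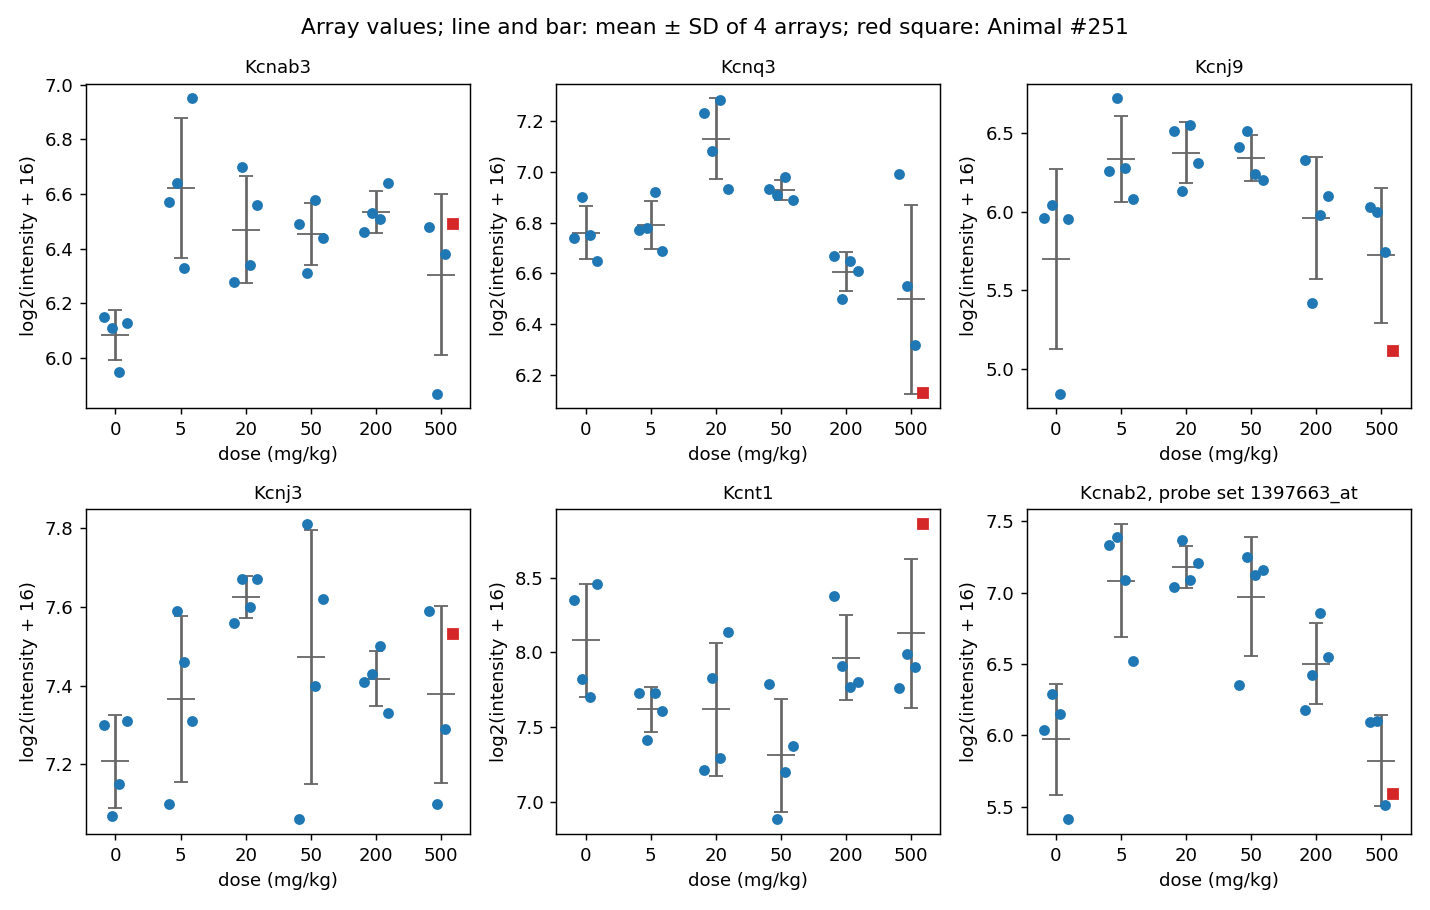
Log2 intensity of Kcnab3, Kcnq3, Kcnj9, Kcnj3 and Kcnt1 at their brightest probe sets and of Kcnab2 at 1397663_at on every array, by D-serine dose in mg/kg. Points are single rats, the line and bar are the mean ± SD of 4 arrays, and the red square is Animal #251. The 5 mg/kg arrays of Kcnab3 sit from 6.33 to 6.95, above the vehicle range of 5.95 to 6.15, and the 50 mg/kg arrays of Kcnt1 reach down to 6.88.

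The remaining voltage-gated pore subunits had no called gene. The 5 tested Kcna genes, of the axonal Kv1 channels, had medians of -0.08, -0.13, -0.04, 0.09 and -0.09. At 5 and 200 mg/kg Kcna1 (Kv1.1) differed by -0.19 and 0.25, and Kcna2 (Kv1.2) by -0.30 and -0.12. In the Kcnc subfamily, the Kv3 channels of fast-spiking neurons, Kcnc1 differed by -0.40 at 5 mg/kg with a 95% interval from -1.29 to 0.49, and Kcnc2 by -0.04. The Kcnd genes encode the A-type Kv4 channels. Kcnd3 (Kv4.3) differed by 0.44, 0.45, 0.43, 0.24 and 0.39, with limma adjusted p values from 0.145 to 0.998. Its 5 mg/kg arrays, from 8.26 to 8.55, lay above the vehicle arrays, from 7.65 to 8.19. Another Kcnd3 probe set, 1369144_a_at, did not show this rise. It read 8.02, 8.02, 8.08 and 7.29 in vehicle and 7.77, 7.64, 7.63 and 7.72 at 5 mg/kg. The dimmer 1369145_a_at overlapped, with 5.62 to 6.27 in vehicle and 5.93 to 6.33 at 5 mg/kg. Kcnd2 (Kv4.2) differed by -0.30 and -0.31 at 5 and 20 mg/kg, and its 95% interval at 20 mg/kg ran from -0.74 to 0.11. Its other probe set, 1387476_at, fell further. It read 8.65, 9.36, 8.87 and 9.26 in vehicle. At 5 mg/kg it read 8.43, 8.35, 8.34 and 8.95, and at 20 mg/kg 8.33, 8.30, 8.34 and 8.70, both overlapping with vehicle. None of these passed the test.

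The 4 tested Kcnip genes, whose products are calcium-binding partners of Kv4, had medians between -0.05 and 0.05 at all 5 doses. Kcnip3, also known as calsenilin, differed by 0.32 at 5 mg/kg (limma adjusted p = 0.203), with a 95% interval from 0.03 to 0.61. Among the 3 tested Kcnh genes, Kcnh1 (EAG1) differed by 0.35 at 5 mg/kg (limma adjusted p = 0.263). Kcnh2 (ERG1) differed by 0.00. The silent modifiers were spread wider. Kcng3 differed by 0.41 at 20 mg/kg (adjusted p = 0.174), with both Kcng genes above vehicle at that dose. Kcns1 (Kv9.1) differed by -0.51 at 5 mg/kg with an interval from -1.29 to 0.27, and Kcnv1 (Kv8.1) by -0.28 at 50 mg/kg.

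Leak and large-conductance channels also had no call. Of the 6 tested Kcnk genes, 5 lay above vehicle at 20 mg/kg, with a median of 0.20. Kcnk1 (TWIK-1) differed by 0.27 at 5 mg/kg (limma adjusted p = 0.245), and Kcnk2 (TREK-1) by 0.38 (0.652). Kcnma1, the pore of the large-conductance calcium-activated channel, was the tightest of the genes named here. It differed by -0.11, 0.06, -0.15, -0.03 and -0.11, and its 95% interval at 20 mg/kg ran from -0.16 to 0.29. Its neuronal auxiliary subunit Kcnmb4 differed by 0.26, 0.22, 0.23, 0.19 and -0.09, and its 50 mg/kg arrays, from 9.0 to 9.22, lay just above the vehicle arrays, from 8.68 to 8.99. Kcne3, an auxiliary subunit, lay below vehicle on all arrays at 5 and 500 mg/kg. It differed by -0.33 (limma adjusted p = 0.226) and -0.43 (0.656) there.

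**Figure D3:**
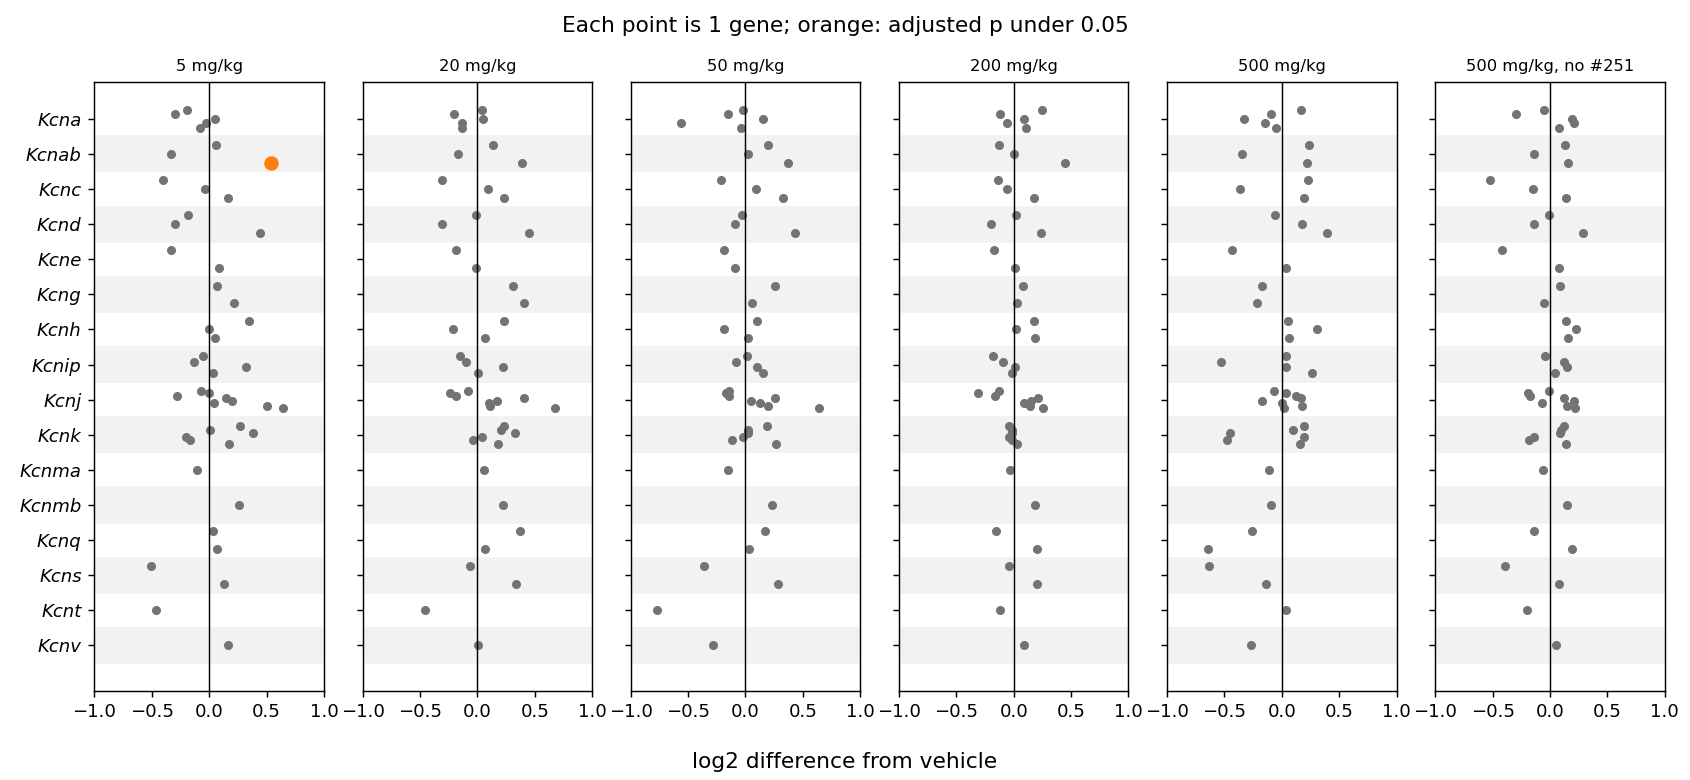
Log2 difference from vehicle of each tested Kcn gene, by subfamily, at 5, 20, 50, 200 and 500 mg/kg and at 500 mg/kg without Animal #251. Points are genes, orange where the adjusted p was under 0.05. Genes of a subfamily mostly lie on both sides of 0, and the lowest is Kcnt1 at 50 mg/kg, at -0.77.

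At 500 mg/kg the result depended on Animal #251 in direction for several genes, although 0 genes were called with or without it. Kcnq5 differed from vehicle by -0.64 with the array and by 0.19 without it. Kcnc1 went from 0.23 to -0.52 (unadjusted p = 0.0188 and adjusted p = 0.750 in limma), Kcnip2 from -0.53 to 0.12 and Kcna4 from -0.33 to 0.19. The medians of the subfamilies moved likewise, from -0.45 to 0.03 for Kcnq, from 0.19 to -0.15 for Kcnc and from 0.18 to -0.01 for Kcnd. Over the 47 genes the median was 0.02 with the array and 0.08 without it, and 45 or more of 47 genes had 95% intervals within 1 log2 unit of 0 in the fit without it at 4 of the 5 doses, with 43 at 50 mg/kg. Kcne3 kept its difference, at -0.42 (adjusted p = 0.750).

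Leaving out Animal #251 also narrowed the spread in the other comparisons, since all groups share 1 estimate of it. The median standard error of the channel genes went from 0.19 to 0.16. Kcnj3, Kcnj9 and Kcnq3 were then called higher at 20 mg/kg, with their differences unchanged. That was 3 of 47 or 6.38%, against 4.4% of all genes called higher and 8.81% in either direction. Kcnj9 is counted among them although its vehicle mean lay under the intensity filter. At 5 mg/kg Kcnab3 was still the only channel gene called, against 6.06% of all genes, 3.4% higher and 2.66% lower. At 200 mg/kg 0 were called, against 0% of all genes.

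Animal #251 itself had a channel profile unlike that of the other 23 rats. For 10 of the 47 genes it was the highest of all 24 arrays and for 17 the lowest, so it was extreme for 27, while any other array was extreme for 1 to 7. Over all tested genes it was highest for 21.3% and lowest for 21.8%, beside 21.3% and 36.2% of the channel genes. The median distance from the mean of its 3 group mates was 0.81 for channel genes and 0.28 for all genes. Distances past 1 log2 unit were found for 13 channel genes (27.7%), 4 up and 9 down, and for 9.64% of all genes. This is 1 array, so these are descriptions with no test.

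The largest gap was in Kcnq5, which read 9.81, 9.68 and 9.52 in the other 500 mg/kg rats and 6.35 in Animal #251, a difference of -3.32 on the log2 scale, or 9.99-fold. On the other 23 arrays Kcnq5 stayed between 9.14 and 9.93. Kcnc1, the Kv3.1 channel of fast-spiking cells, read 9.05, 8.12 and 8.44 in the group mates and 11.50 in Animal #251, which was 7.83-fold higher, against 8.12 to 9.34 on the other 23 arrays. Kcnip2, the Kv4 partner KChIP2, was at 6.77 against 9.28 to 9.48 in its group. The leak channel gene Kcnk2 was at 5.59 against 7.64 to 7.81, and the A-type Kv1 gene Kcna4 at 5.36 against 7.36 to 7.55. Kcnj4 (Kir2.3) was at 6.41 against a mean of 7.93. Among the higher genes, Kcnk3 (TASK-1) was at 7.64 against a mean of 6.34, and Kcnd2 at 10.56 against 9.30. Each of these 8 genes lay outside the range of all other arrays on that of Animal #251. Markers of other regions moved with them on the same array: Gabra6, of cerebellar granule cells, was 5.80 log2 units above its group mates, Cbln1 6.04 and Pcp2 6.06 above. The excitatory neuron genes Nrgn and Camk2a differed by -4.81 and -4.10 there. The part of these markers in the channel profile was not tested.

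**Figure D4:**
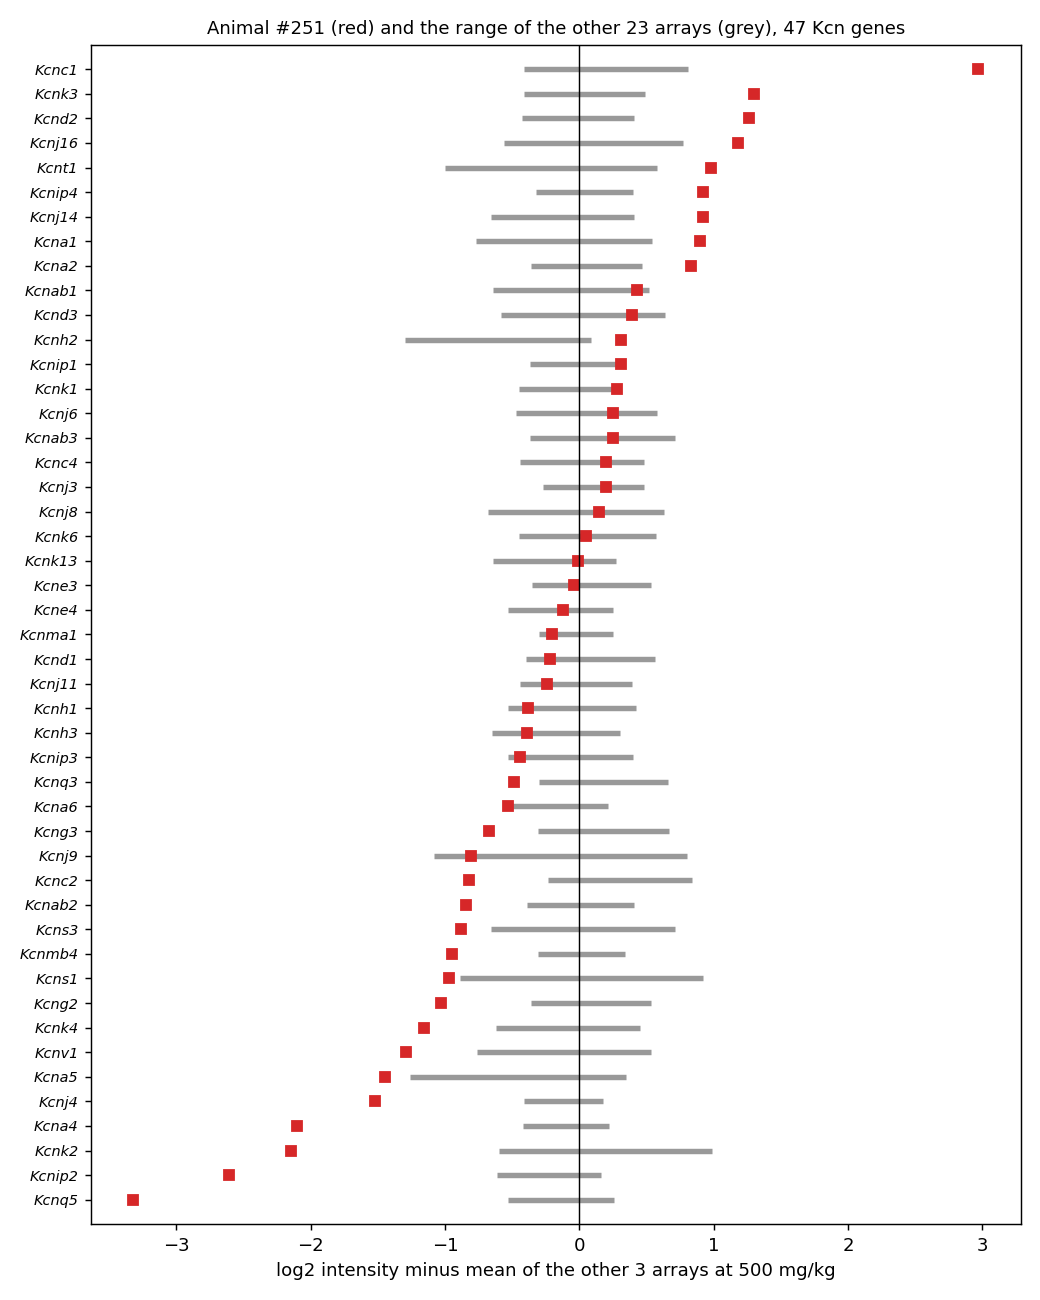
Level of each of the 47 tested Kcn genes in Animal #251 (red squares) and the range of the other 23 arrays (grey bars), as log2 intensity minus the mean of the other 3 arrays at 500 mg/kg. Kcnq5 lies furthest to the left, at -3.32, and Kcnc1 furthest to the right, at 2.97, and 27 squares lie outside their grey bars.

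Array values within a dose group were spread more widely for channel genes than for genes at large. With 1 array per rat, differences between rats and measurement noise cannot be told apart, and the gene sets were not matched for intensity. The median SD within groups was 0.29 for the 47 channel genes and 0.19 for all tested genes, and 0.25 and 0.17 without Animal #251. Without that array the widest were Kcns1 (0.57), Kcna5 (0.47), Kcna1 (0.41), and Kcnk2 and Kcns3 (0.39 each). Kcns1, for instance, ran from 5.80 to 6.98 at 5 mg/kg and from 6.01 to 7.51 at 20 mg/kg. The summed intensity of striatal markers also varied within groups, from 2567 to 7955 among the vehicle arrays and from 1174 to 6068 at 50 mg/kg, and its part in this spread was not tested. Marker lists differed between groups too, although no marker of the lists whose medians follow was called with all 24 arrays. Without Animal #251, 1 of 8 GABAergic interneuron markers was called higher at 20 mg/kg. With all arrays, 1 of 7 cortical and hippocampal excitatory neuron markers was called higher at 5 mg/kg and 1 at 20 mg/kg. For endothelial and mural markers it was 1 of 8 at 20 mg/kg. The shares of all genes higher were 1.83% at 5 mg/kg and 2.65% at 20 mg/kg. From the lowest to the highest dose the striatal median was -0.13, -0.40, -0.94, -0.23 and -0.18 against vehicle. The thalamic median was -0.69, -0.70, -0.21, -0.48 and -0.59, and that of myelinating oligodendrocytes -0.44, -0.60, -0.08, -0.07 and -0.12. For GABAergic interneurons it was 0.24, 0.14, 0.04, 0.13 and 0.00. The part of these shifts in the channel differences was not tested.

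The 28 untested channel genes, with means from 4.15 to 5.98, were left out because their probe sets were among the dimmest 40%. The last gene inside was Kcnj8 at 6.01 and the first outside Kcnk15 at 5.98. The untested genes include all 3 Kcnn genes on the array (Kcnn1, Kcnn3 and Kcnn4), the astrocyte channel gene Kcnj10 (Kir4.1), Kcnk9 (TASK-3) and Kcnb2. In a limma fit with no filter 0 of the 28 were called in any comparison. Those with an unadjusted p under 0.05 numbered 1, 0, 3, 2 and 2 higher and 0, 2, 2, 0 and 1 lower over the 5 doses. Of all 4012 genes left out by the filter, 2.82%, 3.07%, 2.87%, 2.32% and 3.04% were higher and 3.39%, 3.29%, 3.94%, 2.74% and 2.44% lower in that way.

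Genes that work with potassium channels were also followed, as a list of 30 scaffold, auxiliary and potassium transport genes, of which 23 were on the array and 21 tested. Dlg2, which encodes the PSD-93 scaffold that clusters Kv1 and Kir2 channels, rose by 0.64 ± 0.15 at 5 mg/kg (limma adjusted p = 0.0119) and by 0.82 ± 0.15 at 20 mg/kg (0.00122). Lgi1, a secreted protein linked to Kv1 channels and epilepsy, rose by 0.54 ± 0.14 at 20 mg/kg (0.0178). That was 1 of 21 genes called at 5 mg/kg and 2 of 21 at 20 mg/kg, against 3.24% and 5.16% of all genes. With the Gapdh ratio as covariate these calls were lost, since 0 of 18625 probe sets were called at either dose. No other gene of the list was called at any dose with all 24 arrays, and list medians were -0.02, -0.03, 0.01, 0.02 and 0.07 beside those of all genes given above. Slc12a5, the neuronal potassium-chloride cotransporter KCC2, differed by -0.06, -0.05, -0.04, -0.03 and 0.01 with an SE of 0.07 and was among the steadiest.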

How the data were processed

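The deposited intensity is linear, 1 value per probe set, and came from Affymetrix's GCOS, per the submitters' processing notes. Its settings and scaling were not given in these notes or the labels. Quantile normalization included 57 control probe sets, which were then left out with the 40% of probe sets of lowest mean (under 5.98). Values are log2(intensity + 16), so folds of dim genes are understated. Group means of all 24 arrays, or 23 without Animal #251, were fitted in limma 3.58.1 (R 4.3.3) with a trended prior and Benjamini-Hochberg adjustment. Array numbers limit the precision. Symbols came from the platform annotation, updated by Entrez ID for all 126 members. Members, lists and the rule for named genes (called genes, the smallest F test p per subfamily, 20 preset names and the 8 genes furthest off in Animal #251) were chosen with earlier results of these data known. The labels name a separate rat per array. Animal numbers run in blocks by group, rising in the order vehicle, 500, 200, 50, 20 and 5 mg/kg. An order of handling can therefore not be told apart from dose. The mean Gapdh ratio was 0.83, 0.75, 0.60, 0.34, 0.18 and 0.19 in that order, and its link to animal number was not tested. limma was tested on simulated data. Other filters, scalings, pseudocounts, a Gapdh ratio covariate, fits of both groups alone and leaving out each array were tried.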

Additional observations from a re-analysis of the deposited data

Results flagged for a closer look

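In groups of 4 arrays, 18 of 186 sets of values held 1 array far from its 3 group mates, and 8 of the 18 were Animal #251 at 500 mg/kg. The genes looked at include the 8 chosen for lying furthest off on that array, so its flags were partly set by that choice. The other 10 are about the 1 in 20 that chance would give if the sets were independent. The sets are not independent, because the genes were read on the same arrays. Whether chance gave these 10 flags was not tested. On that array (group mates in parentheses), the log2 intensity was 5.36 for Kcna4 (7.36 to 7.55), 8.78 for Kcnc2 (9.56 to 9.69), 10.56 for Kcnd2 (9.21 to 9.38) and 6.77 for Kcnip2 (9.28 to 9.48). It was 5.59 for Kcnk2 (7.64 to 7.81), 8.04 for Kcnmb4 (8.95 to 9.04), 6.35 for Kcnq5 (9.52 to 9.81) and 7.40 for Kcnv1 (8.69 to 8.71). Of the 8, only Kcnd2 was higher than its group.

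The other 10 were spread over the groups. In vehicle, Kcnc2 read 10.44 in replicate 2 (9.42 to 9.57 in the others), and Kcnj9 read 4.84 in replicate 3 (5.95 to 6.04). Without that vehicle array the difference of Kcnj9 at 20 mg/kg went from 0.68 to 0.40. At 5 mg/kg Kcnk1 read 7.84 in replicate 4 (8.21 to 8.27). At 20 mg/kg Kcnab2 read 9.81 in replicate 2 (9.48 to 9.53), and in replicate 1 Kcnc1 read 8.42 (8.83 to 8.87) and Kcns1 6.01 (7.27 to 7.51). At 50 mg/kg replicate 1 was high for the Kv1 genes Kcna4, at 7.68 (7.31 to 7.35), and Kcna5, at 7.23 (5.66 to 5.87). At 200 mg/kg Kcns1 read 6.01 in replicate 3 (7.26 to 7.46), and at 500 mg/kg Kcnab3 read 5.87 in replicate 2 (6.38 to 6.49).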

How the results depend on the processing

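With 4 arrays per group and 2 called genes, counts moved by 1 gene change easily. At 5 mg/kg the count of 1 became 0 with 60% of probe sets left out, 2 with the values as deposited, 0 with the Gapdh ratio as covariate and 0 with only the arrays of both groups. At 20 mg/kg the count of 0 became 1 with median centring, 17 with the values as deposited and 1 with only the arrays of both groups. Between 20 and 200 mg/kg the count of 1 became 0 with no filter, 0 with the 60% filter, 17 as deposited and 0 with the covariate. The F test count of 1 became 0 with the 60% filter, 16 as deposited and 0 with the covariate. The 60% filter left 29 channel genes, without Kcnab3 and Kcnq3. As deposited, with array medians not equalised, the median of all probe sets itself shifted by 0.37 at 20 mg/kg and by 0.41 between 20 and 200 mg/kg, and the calls were all higher. Leaving out each array in turn gave 0 to 2 calls at 5 mg/kg, 0 to 3 at 20 mg/kg, 0 to 1 at 50 mg/kg, 0 to 0 at 200 and 500 mg/kg, 0 to 1 between 20 and 200 mg/kg and 0 to 1 in the F test. Of 2445 refits of 77 differences given in the text, 2304 kept direction and call, 19 became called, 46 lost their call and 76 turned sign, of which 0 were called on either side. With the Gapdh ratio as covariate, values that turned were, at 5 mg/kg, 0.26 for Kcna2, 1.12 for Kcnc1, 0.42 for Kcnd2, -0.08 for Kcnd3, -0.49 for Kcnh2, -0.18 for Kcnj6, -0.25 for Kcnmb4, -1.14 for Kcnq5 and 0.60 for Kcnt1. For 20 mg/kg they were 0.42 for Kcnd2, -0.07 for Kcnd3, -0.24 for Kcng3, -0.13 for Kcnj6, -0.03 for Kcnma1, -0.29 for Kcnmb4, -1.16 for Kcnq5 and 0.62 for Kcnt1. For 50 mg/kg they were -0.31 for Kcnab2, -0.04 for Kcnj6, -0.16 for Kcnmb4 and 0.05 for Kcnt1, and for 200 mg/kg 0.08 for Kcna2, 0.11 for Kcnab1 and -0.15 for Kcnab2. The covariate model held Animal #251, which had the highest Gapdh ratio (0.97). That array lay furthest from its group mates in Kcnq5 (-3.32) and Kcnc1 (2.97). The model was not refitted without it, so its part in these turns was not tested. As deposited, Kcna1, Kcnc2, Kcnj11 and Kcnma1 turned to 0.02, 0.22, 0.15 and 0.10 at 5 mg/kg, and Kcnab2, Kcnd2 and Kcnj11 to 0.29, 0.14 and 0.32 at 20 mg/kg. Median centring gave 0.08 for Kcnc2 and 0.01 for Kcnj11 at 5 mg/kg, 0.01 for Kcnj11 at 20 mg/kg, 0.03 for Kcnma1 at 200 mg/kg and 0.04 for Kcnj6 at 500 mg/kg, and a pseudocount of 1 gave -0.00 for Kcnh2 at 5 mg/kg. Leaving out arrays turned 20 differences in at least 1 fit. Their ranges at 5 mg/kg were -0.08 to 0.27 for Kcnab1, -0.15 to 0.19 for Kcnc2, -0.11 to 0.14 for Kcnh2, -0.13 to 0.04 for Kcnj11, -0.06 to 0.23 for Kcnj6 and -0.04 to 0.14 for Kcnq5. For 20 mg/kg they were -0.22 to 0.04 for Kcnj11 and -0.04 to 0.15 for Kcnq5, for 50 mg/kg -0.07 to 0.13 for Kcnab2 and -0.00 to 0.35 for Kcnj6, and for 200 mg/kg -0.26 to 0.09 for Kcnab1, -0.07 to 0.07 for Kcnab2, -0.01 to 0.16 for Kcnj6 and -0.08 to 0.03 for Kcnma1. For 500 mg/kg they were -0.54 to 0.19 for Kcna4, -0.52 to 0.61 for Kcnc1, -0.78 to 0.12 for Kcnip2, -0.10 to 0.08 for Kcnj6, -0.18 to 0.15 for Kcnmb4 and -0.96 to 0.19 for Kcnq5. Apart from the filters and scalings named, the cause was not tested. No paired analysis was possible because the labels number no replicates and name a separate rat for each array.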

Other observations

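Kcne2 encodes an auxiliary subunit that is abundant in choroid plexus, and its brightest probe set, 1369322_at, was too dim on average to be tested. The 5 arrays with the highest Ttr, the transthyretin gene that marks choroid plexus, were also the 5 with the highest Kcne2. They were vehicle replicate 2, 50 mg/kg replicate 3, 200 mg/kg replicates 1 and 4, and Animal #251. Ttr read 12.63 to 13.09 on them and 5.88 to 7.84 on the other 19 arrays, and Kcne2 read 6.48 to 7.01 against 4.73 to 6.37. A second Kcne2 probe set, 1386770_x_at, read 5.23 to 5.93 against 4.04 to 4.95, while the third, 1394343_s_at, did not separate them (4.05 to 4.52 against 4.02 to 4.82). Kcnj13, an inward rectifier gene also known from choroid plexus, read 5.81 to 6.17 on those 5 arrays and 4.41 to 6.24 on the rest, which overlap. The arrays were ordered by Ttr after the values were seen and cross the dose groups, so no test was made.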
